A study of Mus musculus with 4 samples.

Results

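The MS4A genes Ms4a4b, Ms4a4c, Ms4a4d, Ms4a6b and Ms4a6c and the related genes Tmem176a and Tmem176b were examined in natural killer (NK) cells of mouse liver. These 7 genes were chosen by symbol from the 21025 gene rows of the deposited tables. All 7 had a row, 6 had at least 1 read, and those 6 were tested. RNA-seq of polyA RNA was available from 4 libraries. The 2 TRAIL+ libraries held cells sorted as positive for TRAIL, a death ligand of the TNF family, and negative for CD49b, an integrin chain. The 2 CD49b+ libraries held cells sorted as positive for CD49b and negative for TRAIL. Both subsets came from C57BL/6 mice, and the sort kept cells with NK1.1 and NKp46 and without TCR beta. The series title names the requirement for Nfil3, a bZIP transcription factor, during NK cell development. All 4 libraries are from sorted cells with no stated genetic change, and neither the age of the mice nor any pooling of animals is stated in the labels. Nothing in the labels states that replicates are separate animals. The p-values set the group difference against the spread between these libraries, and part of that spread may be technical.

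MS4A proteins cross the plasma membrane several times and sit beside receptors whose signals they tune. The best known are MS4A1, the B-cell antigen CD20, and MS4A2, the beta chain of the IgE receptor. In mouse T cells MS4A4B is abundant, associates with the TNF receptor GITR and tempers proliferation. TMEM176A and TMEM176B share the MS4A membrane layout and bind each other. In mouse, TMEM176B is a cation channel of dendritic cells that restrains the inflammasome, and both genes are also known from innate lymphoid cells.

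The genes fell into 3 patterns. Tmem176a and Tmem176b were higher in TRAIL+ cells, by 10.2-fold and 13.8-fold. Ms4a4b and Ms4a4c were lower in TRAIL+ cells, by 2.15-fold and 3.77-fold. Ms4a6b and Ms4a6c did not pass the test, and Ms4a4d had no read in any library. So 2 members were called higher and 2 lower out of 6 tested, against 4.76% of all 10047 tested genes called higher, 3.86% called lower and 8.62% called in either direction (limma on log2(RPKM + 1), Benjamini-Hochberg adjusted p under 0.05, n = 2 per group). The median log2 fold change, TRAIL+ over CD49b+, was 0.44 over the 6 members and 0.00499 over all tested genes. RPKM is a read count scaled by gene length and library size, so levels of different genes can be compared. A plain fold is the mean RPKM of the higher subset divided by that of the lower. Because these are bulk samples, fewer cells that express a gene and less RNA per cell cannot be told apart.

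**Figure D1:**
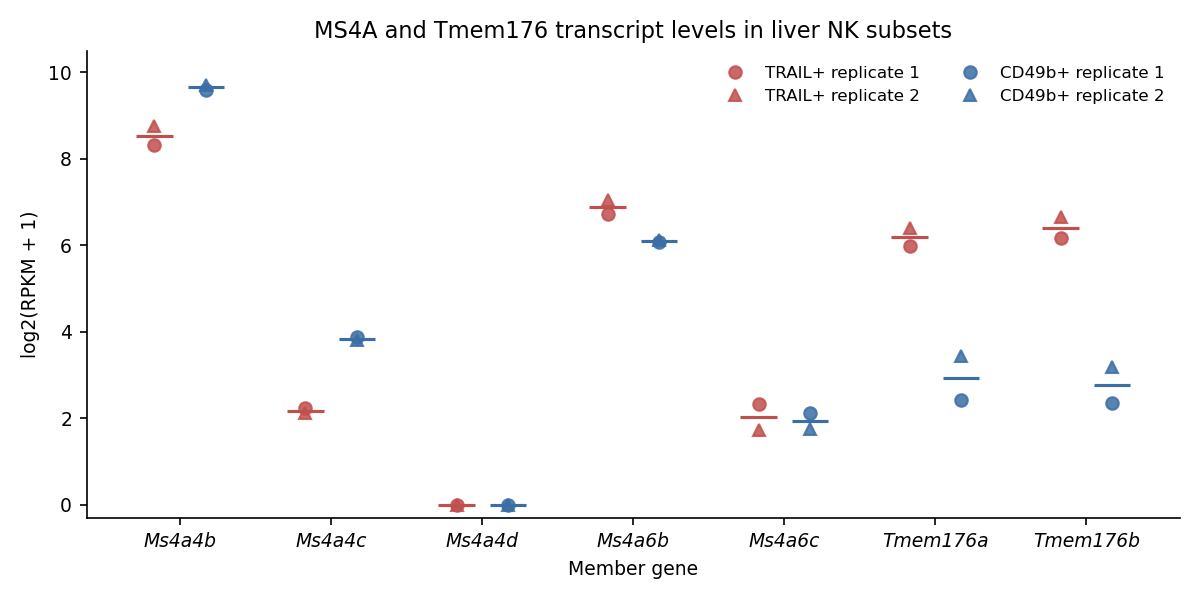
RPKM of each member gene in each library, as log2(RPKM + 1). TRAIL+ libraries are red and CD49b+ libraries blue, circles are replicate 1, triangles replicate 2, and bars are group means (n = 2 each). Tmem176a and Tmem176b are higher in both TRAIL+ libraries, Ms4a4b and Ms4a4c are lower in both, Ms4a6c overlaps between the subsets and Ms4a4d is at 0 throughout.

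The Ms4a members lie side by side in a cluster on chromosome 19, in the order Ms4a4c, Ms4a4b, Ms4a6c, Ms4a6b and Ms4a4d, with Gm8369 between Ms4a6c and Ms4a6b (RefSeq, GRCm38.p6, whereas the authors aligned to mm9). Upstream sequence is shown for the members whose promoters resemble each other. RefSeq promoters were found for 7 of the 7 members, at 10 start sites. The sequence of Ms4a4b is from chr19:11443308-11443547 and that of Ms4a4c from chr19:11407411-11407650, both on the plus strand of GRCm38.p6, and each runs from 250 to 11 bases before the annotated start. They are shown because both genes were lower in TRAIL+ cells and their upstream sequences aligned with 83.3% identity over 227 bases. Gaps and unaligned ends were left out of the identity. Those of Ms4a4b and Ms4a6b, whose differences had opposite signs, aligned with 72.2% identity over 180 bases. A link between upstream sequence and direction was not tested. The capitals mark the longest identical run of Ms4a4b and Ms4a4c, of 20 bases.
Ms4a4b: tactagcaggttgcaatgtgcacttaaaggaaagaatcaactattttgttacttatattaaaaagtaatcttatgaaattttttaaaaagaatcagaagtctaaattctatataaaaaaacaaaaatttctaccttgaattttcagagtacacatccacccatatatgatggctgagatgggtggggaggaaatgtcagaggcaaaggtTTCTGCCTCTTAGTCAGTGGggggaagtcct
Ms4a4c: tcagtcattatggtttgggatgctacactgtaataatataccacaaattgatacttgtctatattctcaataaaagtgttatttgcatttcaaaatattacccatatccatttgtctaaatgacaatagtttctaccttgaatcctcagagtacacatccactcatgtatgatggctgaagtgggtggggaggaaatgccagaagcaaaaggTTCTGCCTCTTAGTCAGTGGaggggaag

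The upstream sequences of Ms4a6b and Ms4a6c are shown because they resemble each other while the genes differ in level by 20.1-fold to 56.8-fold within a library. They aligned with 88.4% identity over 173 bases. The stretches are from chr19:11518313-11518401 for Ms4a6b and chr19:11469195-11469283 for Ms4a6c (plus strand, GRCm38.p6), and 72 of their 89 bases are identical position by position. The capitals mark a match to GAAANNGAA, the core of an interferon-stimulated response element (ISRE), which lies 206 to 198 bases before the start of Ms4a6b and 133 to 125 bases before that of Ms4a6c.
Ms4a6b: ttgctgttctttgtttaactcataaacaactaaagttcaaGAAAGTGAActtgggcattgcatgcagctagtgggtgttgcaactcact
Ms4a6c: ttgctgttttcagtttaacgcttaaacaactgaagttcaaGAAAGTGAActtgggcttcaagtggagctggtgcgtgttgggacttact

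The ISRE match, searched on both strands in the 250 bases before each start, is held by 7.13% of 32851 mouse promoters. The other motifs searched on both strands were TTACGTAA and TTATGTAA for Nfil3, AGGTGTGA for T-box factors, TGTGGTT for Runx factors and TTCNNNGAA for STAT factors. They are held by 0.113%, 0.819%, 1.12%, 4.40% and 7.02% of promoters, and these letters were not found in the windows of any member. The ISRE matches overlapped no other motif searched. Tmem176a and Tmem176b lie head to head on chromosome 6 on opposite strands. Their first listed starts are 346 bases apart, and 155 of the 250 bases before each start are the same bases read from opposite strands.

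Tmem176b had 70.7 and 99.3 RPKM in TRAIL+ replicates 1 and 2, against 4.14 and 8.17 RPKM in CD49b+ replicates 1 and 2. Both TRAIL+ libraries stood far above both CD49b+ libraries, with 591 and 772 reads in TRAIL+ cells against 36 and 66 reads in CD49b+ cells. The group means were 84.96 ± 20.2 RPKM in TRAIL+ cells and 6.16 ± 2.85 RPKM in CD49b+ cells (SD, n = 2 each). The log2 fold change was 3.63 ± 0.33 (SE, 95% interval 2.80 to 4.45, limma adjusted p = 0.0031).

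Tmem176a, its partner, had 62.1 and 83.9 RPKM in TRAIL+ replicates 1 and 2, against 4.40 and 9.93 RPKM in CD49b+ replicates 1 and 2. The groups did not overlap, and the means were 73.0 ± 15.4 RPKM in TRAIL+ cells and 7.16 ± 3.91 RPKM in CD49b+ cells (SD, n = 2 each). The log2 fold change was 3.25 ± 0.37 (SE, 95% interval 2.33 to 4.17, limma adjusted p = 0.00599). Both genes were higher in replicate 2 than in replicate 1 of each subset, and within CD49b+ cells the replicates differed by 1.02 for Tmem176a and 0.84 for Tmem176b on the log2(RPKM + 1) scale. The calls of both genes stood with any of the 4 libraries left out, with log2 fold changes of 3.21 to 4.04 for Tmem176b and 2.74 to 3.76 for Tmem176a.

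The pair kept close to equal levels per length. Tmem176a was at 0.879 and 0.845 times the RPKM of Tmem176b in TRAIL+ cells, against 1.06 and 1.215 times in CD49b+ cells. Its share of the summed RPKM of the pair averaged 46.3% (SD 0.688, n = 2) in TRAIL+ cells, against 53.2% (SD 2.35, n = 2) in CD49b+ cells. The annotated genes overlap on opposite strands. In RefSeq (GRCm38.p6) the gene spans overlap by 3882 bases, which is the whole span of Tmem176a. The listed starts of the pair, which point away from each other, do not show this overlap. In GENCODE M21 (GRCm38) they overlap by 578 bases of gene span and by 81 of the 3810 exon bases of Tmem176a. No source used here gives the use of strand or the annotation in counting, so reads from exon bases that both genes hold cannot be told apart. The annotated transcripts matched to these 2 genes share no word of 36 bases on either strand.

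Tmem176a and Tmem176b are also known from macrophages, dendritic cells and innate lymphoid cells of type 3, so the markers of those cells stand here beside them. The 17 matched genes of Kupffer cells, monocytes and macrophages summed to 181 and 118 RPKM in TRAIL+ cells and to 334 and 232 RPKM in CD49b+ cells, and of 9 tested 1 was lower in TRAIL+ cells and the other 8 were not called. Lyz2 and Ccr2, a receptor that NK cells also express, made up most of these sums. C1qa, which encodes a complement subunit of resident macrophages, had 5.21 and 4.38 RPKM in TRAIL+ cells against 1.31 and 0 RPKM in CD49b+ cells (limma adjusted p = 0.0549). The Kupffer cell genes Clec4f, Timd4 and Cd5l had more reads in TRAIL+ cells, with 9 and 12 reads for Clec4f in TRAIL+ cells against 2 and 0 in CD49b+ cells. Timd4 had 1 and 3 reads in TRAIL+ cells against 0 and 0 in CD49b+ cells. Cd5l had 11 and 25 reads in TRAIL+ cells against 9 and 4 in CD49b+ cells, and of these 3 genes only Cd5l was tested (limma adjusted p = 0.299). Of the list, only these 3 genes and Ccr2 had more reads in TRAIL+ replicate 2 than in TRAIL+ replicate 1, as Tmem176a and Tmem176b did. Lyz2 had 354 and 37 reads in TRAIL+ replicates 1 and 2, and C1qa had 23 and 18. In CD49b+ cells Clec4f and Cd5l had fewer reads in replicate 2 than in replicate 1, while Tmem176a and Tmem176b had more. C1qc had 20 and 9 reads in TRAIL+ cells against 10 and 1 in CD49b+ cells, and Marco had 0 reads in every library. The 14 dendritic cell genes summed to 499 and 432 RPKM in TRAIL+ cells and 418 and 306 RPKM in CD49b+ cells, led by Cst3 and Cd74, with 1 of 7 tested, Xcr1, called higher. Of the 14 genes of type 2 and type 3 innate lymphoid cells, 6 were at 0 in every library, among them Il23r, Il17a, Il17f and Il22, and of 3 tested 1 was called higher. This was Il7r, the interleukin-7 receptor, with 25.6 and 32.6 RPKM in TRAIL+ cells against 9.10 and 13.9 RPKM in CD49b+ cells (limma adjusted p = 0.0392). Its call was lost without CD49b+ replicate 1 (limma adjusted p = 0.256), without CD49b+ replicate 2 (0.0553) and with no filter on low values (0.0755). The list summed to 66.7 and 71.7 RPKM in TRAIL+ cells and 51.9 and 56.0 RPKM in CD49b+ cells, nearly all of it Gata3, Il7r and Kit. Beside these counts, 4.76% of all tested genes were called higher and 3.86% lower in TRAIL+ cells. The part of other cells in the Tmem176 difference was not tested.

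**Figure D2:**
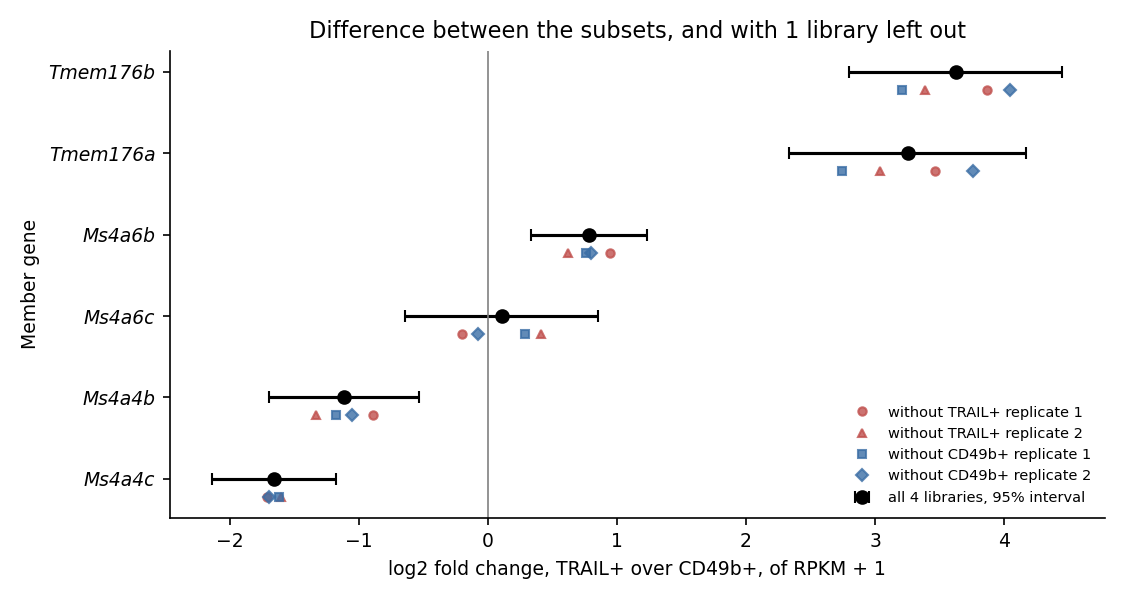
Log2 fold change, TRAIL+ over CD49b+, of RPKM + 1 for the 6 tested members. Black points and bars are the fit over all 4 libraries with its 95% interval, and coloured marks are the fits with 1 library left out. Tmem176a and Tmem176b stay above 2 in each fit, Ms4a4b and Ms4a4c stay below 0, and Ms4a6c falls on both sides of 0.

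Ms4a4b was the most abundant member in every library. It had 318 and 432 RPKM in TRAIL+ replicates 1 and 2, against 771 and 842 RPKM in CD49b+ replicates 1 and 2. Both TRAIL+ libraries were below both CD49b+ libraries. By mean RPKM Ms4a4b ranked 151 of 21025 genes in TRAIL+ cells and 49 in CD49b+ cells, so it was among the most abundant transcripts of both subsets. The means were 375 ± 80.6 RPKM in TRAIL+ cells and 806 ± 50.5 RPKM in CD49b+ cells (SD, n = 2 each). This is a log2 fold change of -1.12 ± 0.23 (SE, 95% interval -1.70 to -0.54, limma adjusted p = 0.0453). The call was lost without CD49b+ replicate 1 (limma adjusted p = 0.394), without CD49b+ replicate 2 (0.459) and with no filter on low values (0.088), and over all 13 alternatives the adjusted p ran from 0.00109 to 0.459.

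Ms4a4c, its close copy, had 3.69 and 3.36 RPKM in TRAIL+ replicates 1 and 2, against 13.7 and 12.9 RPKM in CD49b+ replicates 1 and 2. The groups were far apart relative to their spread, at 3.53 ± 0.235 RPKM in TRAIL+ cells and 13.3 ± 0.511 RPKM in CD49b+ cells (SD, n = 2 each). The reads behind these values were 26 and 22 in TRAIL+ cells against 100 and 88 in CD49b+ cells. The log2 fold change was -1.66 ± 0.19 (SE, 95% interval -2.14 to -1.18, limma adjusted p = 0.00634), a call lost without CD49b+ replicate 1 (limma adjusted p = 0.0608) and kept under the other alternatives (0.000427 to 0.0497). Of the 1688 words of 36 bases in the annotated Ms4a4c transcripts, 195 (11.6%) also occur in those of Ms4a4b. Ms4a4b stood at 86.2 and 129 times the RPKM of Ms4a4c in TRAIL+ cells and at 56.4 and 65.1 times in CD49b+ cells. No source used here says how reads that match both were assigned, so the level of Ms4a4c is uncertain.

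Ms4a4d, the third Ms4a4 copy among the members, had 0 reads in every library. Over an annotated transcript of 1513 bases, 3 reads would stand for 0.487 and 0.524 RPKM in TRAIL+ replicates 1 and 2 and for 0.468 and 0.504 RPKM in CD49b+ replicates 1 and 2, so levels up to about these could have been missed.

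Ms4a6b had 104 and 131 RPKM in TRAIL+ replicates 1 and 2, against 66.8 and 68.6 RPKM in CD49b+ replicates 1 and 2. Both TRAIL+ libraries were above both CD49b+ libraries, on the opposite side to Ms4a4b. The means were 117.8 ± 19.01 RPKM in TRAIL+ cells and 67.7 ± 1.27 RPKM in CD49b+ cells (SD, n = 2 each), a 1.74-fold difference that missed the threshold. Its log2 fold change was 0.78 ± 0.18 (SE, 95% interval 0.33 to 1.23, limma adjusted p = 0.0602). It passed with quantile normalization (limma adjusted p = 0.0292) and with a correction for gene length (0.011). It did not pass with another pseudocount, other filters, median centring, voom or another prior (limma adjusted p of 0.0636 to 0.0872). With 1 library left out its log2 fold change ran from 0.62 to 0.95.

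Ms4a6c, the close copy of Ms4a6b, had 4.06 and 2.31 RPKM in TRAIL+ replicates 1 and 2, against 3.33 and 2.35 RPKM in CD49b+ replicates 1 and 2. The groups overlapped, with 34 and 18 reads in TRAIL+ cells and 29 and 19 reads in CD49b+ cells. Its log2 fold change was 0.10 ± 0.30 (SE, limma adjusted p = 0.914), and the 95% interval of -0.64 to 0.85 holds differences of either sign. Ms4a6b and Ms4a6c transcripts share 209 words of 36 bases, 12.7% of those of Ms4a6b and 11.6% of those of Ms4a6c, so the lower of the pair is again the less certain.

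Within the Ms4a transcripts Ms4a4b and Ms4a6b made up nearly all of the summed RPKM, so their shares must move in opposite directions. The 5 members summed to 431 and 569 RPKM in TRAIL+ cells, against 854 and 926 RPKM in CD49b+ cells. Ms4a4b made up 74.95% of this sum in TRAIL+ cells (SD 1.41, n = 2), against 90.6% in CD49b+ cells (SD 0.529, n = 2). Ms4a6b made up 23.7% in TRAIL+ cells (SD 0.84), against 7.61% in CD49b+ cells (SD 0.29). Within a library Ms4a4b was at 3.05 and 3.29 times the RPKM of Ms4a6b in TRAIL+ cells, against 11.5 and 12.3 times in CD49b+ cells. The replicates of a subset lay close together in this ratio and the subsets lay far apart. The shares and ratios are given as a description, and no test was run on them. An exact permutation test of 2 against 2 libraries cannot go below p = 0.333.

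**Figure D3:**
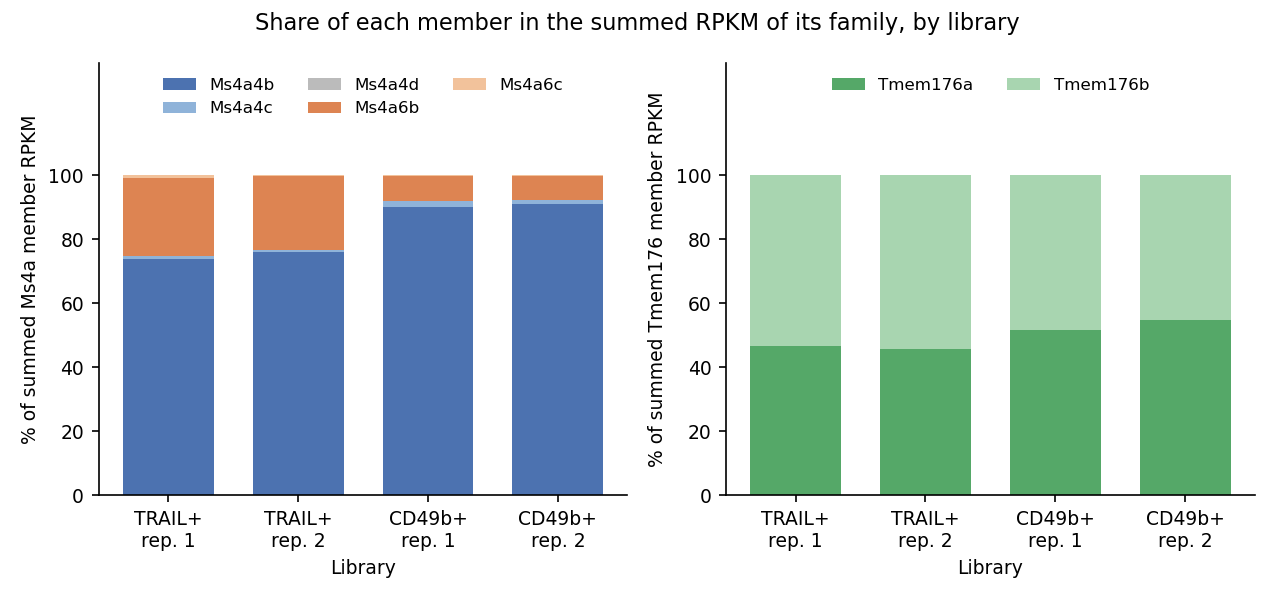
Share of each member in the summed RPKM of the Ms4a members (left) and of the Tmem176 members (right), in percent, with 1 bar per library. Ms4a4b makes up 73.95% and 75.95% of the Ms4a sum in the TRAIL+ libraries and 90.2% and 90.9% in the CD49b+ libraries, and the Tmem176 pair is split nearly evenly in each library.

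Among the members' levels in TRAIL+ cells, Ms4a4b stood highest, then Ms4a6b, Tmem176b, Tmem176a, Ms4a4c and Ms4a6c. Tmem176b and Tmem176a are neighbours in this order whose ranges overlapped, as did those of Ms4a4c and Ms4a6c. In CD49b+ cells Ms4a4b and Ms4a6b again led, followed by Ms4a4c at 13.3 RPKM, Tmem176a and Tmem176b, whose ranges overlapped, and Ms4a6c at 2.84 RPKM.

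Of 13 other MS4A genes listed, 10 were matched to a row, and 6 of these had a read. Ms4a15 had 0 and 0.307 RPKM in TRAIL+ replicates 1 and 2, against 5.22 and 5.32 RPKM in CD49b+ replicates 1 and 2. Its reads numbered 2 over the TRAIL+ libraries and 74 over the CD49b+ libraries, a ratio of 35.6 for CD49b+ over TRAIL+ with an exact 95% counting interval of 9.52 to 299.5. Fold changes of log2(RPKM + 1) come out too small for genes this low. On that scale it was lower in TRAIL+ cells at -2.46 ± 0.25 (SE, limma adjusted p = 0.00431), a call kept under all 13 alternatives run. Ms4a15 is the only other family member past the test of the 3 tested, against 8.62% of all tested genes called in either direction.

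Ms4a6d, a further copy of the Ms4a6 type, had 1.78 and 1.34 RPKM in TRAIL+ replicates 1 and 2, against 1.03 and 0.738 RPKM in CD49b+ replicates 1 and 2. The difference rested on 17 reads in TRAIL+ cells and 10 in CD49b+ cells and did not pass (limma adjusted p = 0.425). Ms4a1, which encodes CD20, had 4.05 and 1.79 RPKM in TRAIL+ cells against 5.38 and 0.493 RPKM in CD49b+ cells. In each subset replicate 1 was the higher, and the groups overlapped (limma adjusted p = 0.904). The 11 matched genes of B cells and plasma cells led by Cd79b and Cd79a, summed to 25.5 and 17.2 RPKM in TRAIL+ cells and 25.3 and 14.2 RPKM in CD49b+ cells, so they too were higher in replicate 1 of each subset. Ms4a7, a macrophage gene, was at 0 in both TRAIL+ libraries and at 0.501 and 0.539 RPKM in the CD49b+ libraries. Ms4a8a and Ms4a2 were read only in CD49b+ replicate 1, at 0.434 and 0.232 RPKM.

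**Figure D4:**
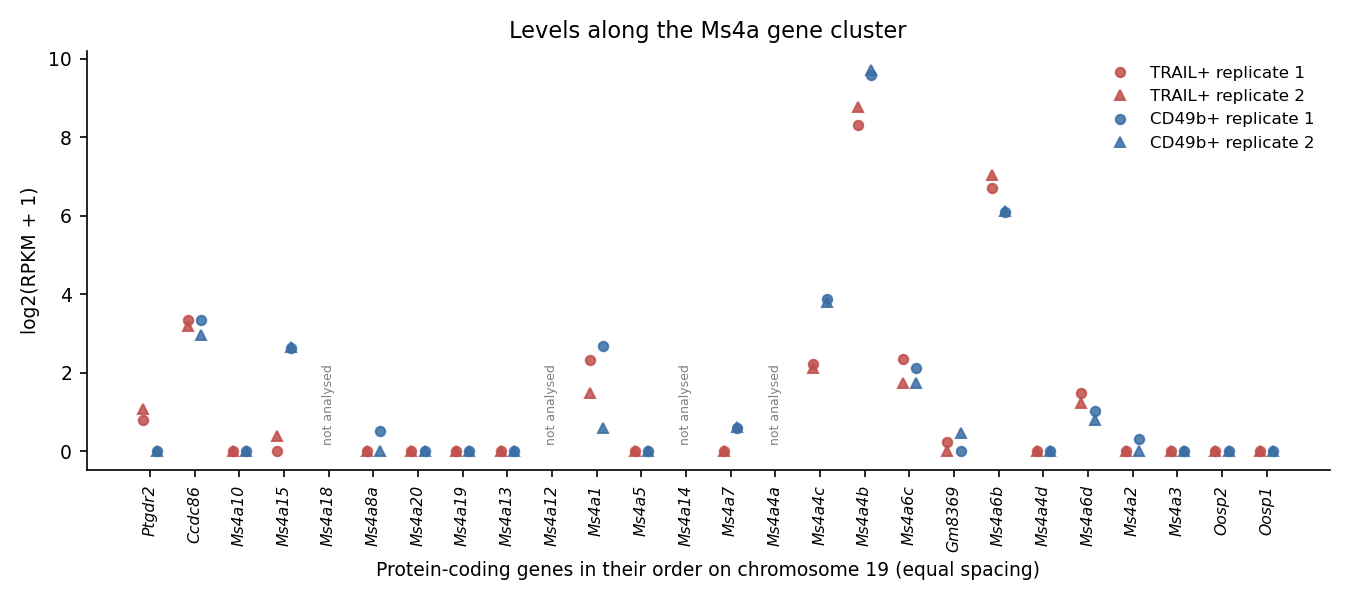
Log2(RPKM + 1) of protein-coding genes in their order along the Ms4a cluster of chromosome 19, drawn at equal spacing, with TRAIL+ libraries in red and CD49b+ libraries in blue. Reads are concentrated in Ms4a4b and Ms4a6b. Ms4a4b and Ms4a4c are lower in the TRAIL+ libraries, while Ms4a6b, with Ms4a6c and Gm8369 between it and Ms4a4b, is on the other side. Genes marked as not analysed are not analysed here.

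The inflammasome, which TMEM176B restrains in mouse dendritic cells, was followed in a list of 14 genes, of which 9 were tested. Of these, 2 were higher in TRAIL+ cells and 7 did not pass, with a median log2 fold change of 0.03. Over all tested genes 4.76% were called higher. P2rx7, the ATP-gated channel that triggers the NLRP3 inflammasome, had 34.2 and 31.2 RPKM in TRAIL+ cells against 0.3495 and 0.047 RPKM in CD49b+ cells (log2 fold change 4.82 ± 0.23, SE, limma adjusted p = 0.000565). Aim2, a sensor of cytosolic DNA, had 32.5 and 27.4 RPKM in TRAIL+ cells against 8.91 and 11.5 RPKM in CD49b+ cells (1.47 ± 0.20, limma adjusted p = 0.0117), and lost its call without CD49b+ replicate 1 (0.0981). Nlrp3 itself was at 0.305 RPKM or lower in every library. The adaptor gene Pycard, named after its values were seen, had 45.0 and 64.1 RPKM in TRAIL+ cells against 91.7 and 101 RPKM in CD49b+ cells and missed the threshold (limma adjusted p = 0.0856). Pycard was called lower with the gene length correction (limma adjusted p = 0.0209). It was not called with another pseudocount, other filters, median centring, quantile normalization, voom or another prior (limma adjusted p of 0.0501 to 0.126). With 1 library left out its log2 fold change ran from -1.08 to -0.58.

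GITR, the partner of MS4A4B in mouse T cells, is encoded by Tnfrsf18. It was listed with genes of calcium entry. Of 12 tested genes of this list 1 was lower in TRAIL+ cells and 11 did not pass. The median log2 fold change was -0.05, and 8.62% of all tested genes were called in either direction. Tnfrsf18, named after its values were seen, had 167 and 211 RPKM in TRAIL+ cells against 97.3 and 117 RPKM in CD49b+ cells. The difference, 0.81 ± 0.20 on the log2 scale (SE), did not pass (limma adjusted p = 0.0754). It passed with quantile normalization (limma adjusted p = 0.0292) and with the gene length correction (0.00878). With another pseudocount, other filters, median centring, voom or another prior it did not pass (limma adjusted p of 0.0791 to 0.108). With 1 library left out the difference ran from 0.64 to 0.98. The lower gene was Orai2, a subunit of the store-operated calcium channel, with 16.7 and 14.3 RPKM in TRAIL+ cells against 31.2 and 32.8 RPKM in CD49b+ cells (limma adjusted p = 0.0234). Its call was lost without CD49b+ replicate 1 (limma adjusted p = 0.226) or replicate 2 (0.277).

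For each tested member, the genes nearest to it in pattern were found by the Euclidean distance of log2(RPKM + 1) values, centred on each gene's mean, over the 4 libraries. The nearest of 10046 candidates to Tmem176b were Tesc (distance 0.11) and Abcb9 (0.348), and Tmem176a came next (0.397). Those nearest to Tmem176a were Cav2 (0.288) and S100a4 (0.388), all of these higher in TRAIL+ cells. Nearest to Ms4a4b were Chil5 (0.0479) and Prune1 (0.0501), and to Ms4a4c Pfkp (0.053) and Rnf157 (0.0652). Chil5 was near the floor and not called, at 0 and 0.404 RPKM in TRAIL+ cells against 1.45 and 1.75 RPKM in CD49b+ cells. With a pseudocount of 0.1 its log2 fold change was -2.91, against -1.12 for Ms4a4b, so its nearness depends on the pseudocount. Tuba4a (0.0549) and Zcchc18 (0.0553) were nearest to Ms4a6b, and Phf21a (0.0142) and Myo1f (0.0551) to Ms4a6c. With 4 libraries many genes share a pattern by their subset difference alone, and the distances are a description.

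The genes of the sort gate followed the labels. Tnfsf10, which encodes TRAIL, had 208 and 189 RPKM in TRAIL+ cells against 7.26 and 6.94 RPKM in CD49b+ cells, and Itga2, which encodes CD49b, had 5.26 and 1.55 RPKM in TRAIL+ cells against 52.1 and 37.0 RPKM in CD49b+ cells. The NK genes Ncr1 and Klrb1c were at 901 to 1253 RPKM in every library. The reads behind the RPKM were 4071617 and 3786497 in TRAIL+ replicates 1 and 2 and 4232967 and 3933014 in CD49b+ replicates 1 and 2, where 1 RPKM in a gene of 2000 bases stands for 7.57 to 8.47 reads. Of the T-cell list 7 of 9 tested genes were higher and 2 lower in TRAIL+ cells, with sums of 927 and 1232 RPKM in TRAIL+ cells and 93.0 and 104 RPKM in CD49b+ cells, with Cd3g and Cd247 the most abundant and Cd3g most of the sum in TRAIL+ cells. Also called higher were Cd3d, Cd3e, Cd4, Cd8a, Trat1 and Bcl11b, where 4.76% of all tested genes were called higher and 3.86% lower. Cd3e had 21.3 and 43.2 RPKM in TRAIL+ cells against 2.62 and 3.87 RPKM in CD49b+ cells, and Cd8a had 10.6 and 17.9 RPKM in TRAIL+ cells against 0.226 and 0 RPKM in CD49b+ cells. Cd247 and Cd28 were the lower ones, and Cd5, Cd6 and Themis were at 0.725 RPKM or lower in every library. The neutrophil list, led by S100a9 and Retnlg, summed to 26.6 and 5.07 RPKM in TRAIL+ cells and 30.2 and 0.644 RPKM in CD49b+ cells, and the erythroid and platelet list, led by Alas2 and a beta globin row that the files name Hbb-b1, to 103 and 35.7 RPKM in TRAIL+ cells and 111 and 5.81 RPKM in CD49b+ cells. Hepatocyte genes, led by Trf and Alb, summed to 106 and 102 RPKM in TRAIL+ cells and 48.1 and 23.9 RPKM in CD49b+ cells, most of it Trf in TRAIL+ cells. The mast cell and basophil list, led by Cpa3 and Mcpt8, stayed at 1.43 to 2.67 RPKM and the endothelial and stellate list, led by Pecam1 and Col1a1, at 41.45 to 53.0 RPKM. Marker genes named beyond the 2 most abundant of a list, and Nlrp3, were chosen after their values were seen. The part of these cells in the members' differences was not tested.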

How the data were processed

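RNA was measured in 4 libraries, grouped and numbered by their titles. The deposited values are RPKM, per the file headers. TopHat 1.4.1 and build mm9 are named in the submitters' processing notes, and no source used here gives the counting tool or annotation. RPKM moves in whole steps of reads, from which the reads of each library and a gene length per row were recovered (100% of 13681 rows above 0, relative tolerance 1e-08). Where several lengths were possible, low counts are less certain. Intervals and floors cover counting error only. Names were matched to RefSeq (GRCm38.p6), and shared words and exons were taken from GENCODE M21 transcripts.

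The 10047 genes that reached an RPKM of 1 in 2 or more libraries were tested as log2(RPKM + 1) values in R 4.3.3 using limma 3.58.1 (trended prior, TRAIL+ minus CD49b+, Benjamini-Hochberg over all genes, 2 residual degrees of freedom). Members and lists were chosen with earlier results of these data known. The rule for genes named took the members, other MS4A genes with a read, up to 4 called genes a direction of the inflammasome and calcium lists, the 2 most abundant genes of each marker list, and the 2 genes nearest each member. Replicates differed by more than counting error (mean chi-square per gene 25.9 for TRAIL+ and 7.84 for CD49b+ replicates). Alternatives were other pseudocounts, filters, scalings, voom on recovered reads, gene length correction, another prior, a replicate block and leaving out each library.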

Additional observations from a re-analysis of the deposited data

How the results depend on the processing

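Tmem176a and Tmem176b kept their direction and call under all 13 alternatives run. The members called lower numbered 1 with no filter on low values, and 0 to 2 with 1 library left out, while the members called higher numbered 2 or 3 under every alternative, the additional member being Ms4a6b. Ms4a4b, at a log2 fold change of -1.12, was not called with no filter on low values, and with 1 library left out it ran from -1.34 to -0.90. Ms4a4c ran from -1.71 to -1.61 with 1 library left out. Ms4a6b passed with quantile normalization (0.76) and the gene length correction (0.73), and ran from 0.62 to 0.95 with 1 library left out. Ms4a6c was not tested at an RPKM of at least 5, and with 1 library left out it ran from -0.20 to 0.41, with -0.20 without TRAIL+ replicate 1 and -0.08 without CD49b+ replicate 2. In the same 2 fits Ms4a1 was at -0.14 and -0.77, Phf21a at -0.19 and -0.07, and Myo1f at -0.25 and -0.12, and their highest values with 1 library left out were 1.33, 0.43 and 0.36. The alternatives for genes other than the members were added after seeing the data.

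Over all genes, 725 were called higher and 596 lower with the gene length correction, and with 1 library left out 245 to 777 were called higher and 198 to 763 lower. With the replicate number as a block 1049 were called higher and 833 lower, and Ms4a6b passed at 0.78 (limma adjusted p = 0.00424). The replicate differences of the subsets correlated across genes (r = 0.563), but the labels do not say that the numbers pair libraries, so the block is no part of the results. With 1 library left out the lone library of a subset is assumed to vary like the other subset. The cause of the lost and gained calls was not tested. Depth limits Ms4a4d, Ms4a6c, Ms4a6d and Ms4a15, which rest on few reads. It also limits Ms4a4c in TRAIL+ cells, where it had 26 and 22 reads.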
